A study of Mus musculus with 88 samples.

Results

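Pax6, Sox1, Six3, Fezf2, Nes, Sox11, Lhx2 and Rax are 8 genes used as marks of neural ectoderm, taken here out of the 54633 genes of the 3 bulk tables and followed through mouse embryonic stem cells (ESCs) that lack a subunit of Polycomb Repressive Complex 2 (PRC2). All 8 are in each of the 4 expression tables, of which the single-cell table holds 15830 genes. The 8 were listed by name with results of these files in view, so their levels by cluster and by single-cell library are a description without a test. The adjusted p-values given below for the bulk libraries come from fits over all genes and are no independent evidence about the list as a whole.

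The series holds 88 samples. Embryoid bodies (EBs) are aggregates in which ESCs differentiate once LIF is withdrawn. Their single-cell libraries have E14 in the title and are labelled wild type (WT), Jarid2 null, Eed null and Mtf2 null. There was 1 library per genotype on days 0, 4, 7 and 10, with live cells sorted into plates. Bulk monolayer libraries, also titled E14, came from cells labelled WT, Mtf2 null and Jarid2 null. They were made undifferentiated (UD) and after 5 h, 24 h and 48 h of directed differentiation to mesoderm or to endoderm. Each genotype had 2 libraries at a time point, which the methods call technical replicates. Bulk EBs were sampled on days 0, 2, 4 and 7, at 1 sample per line and day. The day 0 columns are named as monolayer. Most samples had 2 columns, which were summed, so the spread between columns was not used. The lines were labelled Mtf2 null, Jarid2 null and Eed null, beside 3 WT lines (Pcl1-3 WT, JM8 and J1, in that order). The paper calls these WT lines background-matched to the nulls and lists E14 WT apart from them. Titles do not say whether the WT of the E14 libraries is matched to each null. Genotype and line background thus cannot be told apart there. Each genotype is 1 line, the Mtf2 null line carries a gene trap and not a deletion of the whole gene, and all ESCs were kept in serum and LIF. In the directed libraries Mtf2 lay at 30.1 to 38.1 CPM (counts scaled to a library total of 1000000) in Mtf2 null cells and at 205 to 508 CPM in WT, whereas the Jarid2 ranges of Jarid2 null (189 to 622 CPM) and WT (307 to 660 CPM) overlapped. In single cells Mtf2 lay at 53.7 to 61.1 UMI CPM (unique molecular identifiers, UMIs, on the same scale) in Mtf2 null and at 294 to 793 in the other libraries, Jarid2 at 115 to 185 in Jarid2 null and at 184 to 884 in the others, and Eed at 1.33 to 11.5 in Eed null libraries and at 115 to 495 in the others. In bulk EBs the day 0 library labelled Mtf2 null held Mtf2 at 316 CPM, above the 127 CPM of Mtf2 in the day 0 library labelled Jarid2 null, Jarid2 was at 593 CPM in the latter beside 503 CPM in JM8, and Eed over the 4 days was at 58.1 to 206 CPM in libraries labelled Eed null and at 52.1 to 245 CPM in J1. These bulk EB libraries are therefore called by their labels only.

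PRC2 places the repressive mark H3K27me3 on promoters that are rich in CpG dinucleotides, among them those of many regulators of development. Mtf2 and Jarid2 are accessory subunits that bring the complex to such sites, while Eed belongs to its core. Neural ectoderm arises when cells of the early ectoderm escape signals for mesoderm and epidermis. Sox1, a transcription factor of the neural plate, is among its earliest marks, Sox11 is a related factor of neural precursors that acts in other tissues too, and Nes codes for nestin, an intermediate filament of progenitor cells. Six3, Rax, Lhx2 and Pax6 code for transcription factors of the anterior neural plate and the eye field, and Fezf2 for a zinc finger factor of the forebrain.

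The promoters of the 3 genes on which the comparisons below turn most are shown because the complex is known for binding CpG-rich starts. They run from 250 bases before to 50 bases after the RefSeq transcription start in GRCm38.p6, are written 5′ to 3′ on the strand of the gene, and have each CpG in capitals. Sox11 was read at chr12:27342669-27342968 on the minus strand, Six3 at chr17:85620584-85620883 on the plus strand and Fezf2 at chr14:12345816-12346115 on the minus strand.
Sox11: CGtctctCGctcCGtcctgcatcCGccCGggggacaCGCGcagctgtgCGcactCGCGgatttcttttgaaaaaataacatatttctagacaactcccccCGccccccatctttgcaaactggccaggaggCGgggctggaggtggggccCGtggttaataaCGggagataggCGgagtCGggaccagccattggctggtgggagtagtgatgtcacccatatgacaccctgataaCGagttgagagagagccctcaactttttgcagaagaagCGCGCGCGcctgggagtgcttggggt
Six3: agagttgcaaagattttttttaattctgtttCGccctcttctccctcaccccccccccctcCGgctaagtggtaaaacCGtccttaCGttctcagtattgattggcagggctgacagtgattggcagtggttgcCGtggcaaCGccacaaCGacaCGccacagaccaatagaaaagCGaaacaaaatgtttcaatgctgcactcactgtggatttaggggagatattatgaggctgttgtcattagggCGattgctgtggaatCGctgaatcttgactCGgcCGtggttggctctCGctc
Fezf2: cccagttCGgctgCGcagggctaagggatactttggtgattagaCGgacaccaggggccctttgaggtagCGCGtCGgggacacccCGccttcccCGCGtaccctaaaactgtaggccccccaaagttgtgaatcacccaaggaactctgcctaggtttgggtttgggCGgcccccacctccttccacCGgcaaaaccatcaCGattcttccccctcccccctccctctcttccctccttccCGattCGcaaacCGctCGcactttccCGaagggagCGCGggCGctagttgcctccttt
The Sox11 window holds 21 CpGs, and 24.8% of the 32851 promoters of that length have at least as many. Fezf2 holds 20 (26.5% of promoters have at least as many) and Six3 holds 14 (36.3%), against a median of 7 over all promoters. Among the other members the window of Sox1 held 37 CpGs (5.58%) and the richer one of Lhx2 held 34 (7.73%). The promoter of Rax was not examined, and each of the other 7 members lay above that median. Of the 7 members examined, the CCAAT box (CCAAT on either strand) was found in Pax6, Sox1, Six3 and Sox11, and in 37.4% of all promoters. The octamer ATGCAAAT was found in Sox1 alone among them and in 1.74% of all promoters. TATAAA (13.6% of all promoters) and the homeodomain core TAATTA (5.29%) were found in none of these windows.

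On the GRCm38 genome with GENCODE annotation, Pax6 (ENSMUSG00000027168) lies on chromosome 2 at 105668900 to 105697364, Sox1 (ENSMUSG00000096014) on chromosome 8 at 12395295 to 12400126 and Six3 (ENSMUSG00000038805) on chromosome 17 at 85613608 to 85629302. Fezf2 (ENSMUSG00000021743) lies on chromosome 14 at 12342094 to 12348189, Nes (ENSMUSG00000004891) on chromosome 3 at 87971078 to 87980451 and Sox11 (ENSMUSG00000063632) on chromosome 12 at 27334264 to 27342574. Lhx2 (ENSMUSG00000000247) lies on chromosome 2 at 38339281 to 38369733. Sox1 and Sox11 each consist of 1 exon. Six3 overlaps Six3os1 and Pax6 overlaps Pax6os1 on the opposite strand, and Sox1 lies within Sox1ot on its own strand. The strand setting of the counting is not given in the sources used here, so reads of a gene and of such a partner cannot be told apart. In the 48 directed libraries Six3os1 lay at 0.541 to 3.15 CPM, Sox1ot at 0.711 to 6.29 CPM and Pax6os1 at 0 to 0.0758 CPM.

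In the single cells, 7 of the 8 genes were highest in the same one of the 22 deposited clusters, cluster 15 (res.2.5 in the deposited annotation). The levels are UMIs summed over the cells of a cluster and scaled to UMI CPM of that cluster. Of all 12827 genes that reach 10 UMI CPM in some cluster, 7.23% have their highest level in cluster 15. Six3 reached 248 UMI CPM there (exact Poisson interval 216 to 283, as all intervals here at 95% and for counting error only), and the next cluster, 21, held 38.3. Fezf2 reached 149 UMI CPM (124 to 176) with 11.7 in cluster 11 next. Both genes were thus several times lower in every other cluster, and both were at 0 UMIs in cluster 3, which is made almost wholly of WT day 0 cells. Sox1 reached 177 UMI CPM (150 to 208) with 35.1 in cluster 11 next, and Lhx2 227 (196 to 261) with 83.8 in cluster 13 next. Pax6 reached 112 UMI CPM (90.6 to 136) with 27.1 in cluster 12 next. Rax, which directs the eye field, rested on 11 UMIs in cluster 15, or 12.7 UMI CPM (6.32 to 22.7), and its interval overlapped that of cluster 9 (4.16, 1.53 to 9.05).

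**Figure D1:**
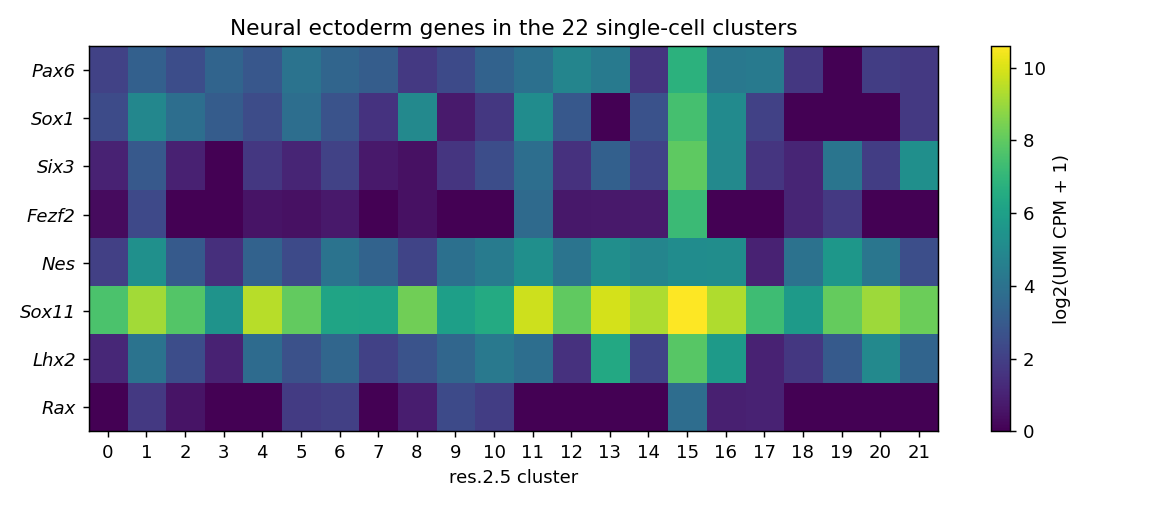
Levels of the 8 genes (rows) in the 22 single-cell clusters (columns, res.2.5), as log2 of UMI CPM plus 1. Cluster 15 is brightest for 7 genes, Sox11 is high in many clusters and Nes has no single peak.

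Sox11 was the least confined of the 7. It reached 1549 UMI CPM (1467 to 1634) in cluster 15 and still 970 (921 to 1021) in cluster 13 and 893 (842 to 946) in cluster 11. Only 10.1% of all Sox11 UMIs came from cluster 15, whereas 77.2% of Fezf2 UMIs and 57.5% of Six3 UMIs did. The shares were 30.8% for Lhx2, 27.5% for Sox1, 22% for Pax6, 21.6% for Rax and 5.03% for Nes. Nes, the filament gene, was the exception in level as well. Its highest value was 47.2 UMI CPM (28.8 to 72.8) in cluster 19. Cluster 15 with 34.5 (23.3 to 49.3) was not told apart from clusters 1, 10, 11, 13, 14, 16, 18, 19 and 20 within the counting intervals.

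Cluster 15 held 136 of the 4949 cells, with a median of 5860 UMIs per cell against 6650 over all cells. Its leading genes by fold were RMST-1, Six3, Fezf2, Nr2f1, Ildr2, Six3os1, Zic1, Dmrta2, Col2a1 and Fabp7, and its forebrain list summed to 1208 UMI CPM with all 12 measured genes detected. It is called neural ectoderm-like below, from these markers. A UMI of Six3 was found in 36% of its cells (exact binomial interval 28 to 44.7) and one of Fezf2 in 28.7%. In cluster 3, where the median depth was higher at 8485 UMIs, 0 of 335 cells held either, which allows a share of up to 0.896% from 3 cells. That limits cells with a UMI and not cells that express the gene. Of the 136 cells, 79 (58.1%, interval 49.3 to 66.5) held UMIs of 3 or more of the 8 genes. The share over all cells was 4.67%, and the next clusters were 16 with 17.9% and 13 with 11.1%. With each cell thinned to 2500 UMIs, which left out the shallower cells and kept 119 of this cluster, the share was 42.9% in cluster 15, 4.84% in cluster 16 and 2.53% in cluster 13. Of the 28 pairs of genes, 23 met in more cells than the product of their shares gives and 5 in fewer, the latter all with Nes or Rax. Six3 and Fezf2 shared 23 cells where the product gives 14.1, Sox1 and Pax6 shared 21 where it gives 19, and Nes and Lhx2 shared 5 where it gives 7.79. Cells share a library and differ in depth, so these counts are a description.

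Genes of the wider neural lists had their highest level in cluster 15 to unequal extents. Of the forebrain and eye field list, 10 of 12 measured genes had their highest level in cluster 15, among them Otx2 with 464 UMI CPM and Six6 with 57.6. The neural plate and progenitor list gave 8 of 15, the midbrain, hindbrain and spinal cord list 8 of 15 and the neurogenesis list 5 of 13. Among genes that reach 10 UMI CPM in some cluster, as in the background of 7.23%, the counts were 9 of 10, 8 of 15, 6 of 12 and 3 of 10 in that order. The summed neurogenesis list, however, was lower in cluster 15 (352 UMI CPM) than in cluster 6 (1278), where Stmn2 alone held 1054. The midbrain, hindbrain and spinal cord list was lower in cluster 15 (358) than in cluster 8 (535), where Olig2 held 295 and Gbx2 held 210. Few genes thus made up most of the sums in clusters 6 and 8. Zic1 (187 UMI CPM), Pax3 (85.2) and Elavl4 (32.2) are examples of genes highest in cluster 15, a neural plate factor, a dorsal neural tube factor and an RNA-binding protein of neurons. Over the 22 clusters the genes whose log2 profile lay closest to the mean profile of the 8 were Ildr2 (Pearson r = 0.915), Six6 (0.881), Fam181b (0.859), RMST-1 (0.855) and D030055H07Rik (0.85). Of the members themselves, Six3 (0.839) and Fezf2 (0.837) lay closest to that mean and Rax (0.587) and Nes (0.597) farthest. Clusters are few and share libraries, so these values describe likeness only.

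Cells of cluster 15 appeared late and in unequal numbers among genotypes. No library of day 0 or day 4 contributed a cell. On day 7 the cluster took 16 of 316 WT cells (5.06%, interval 2.92 to 8.09), 11 of 344 Mtf2 null cells (3.2%, 1.61 to 5.65), 14 of 302 Jarid2 null cells (4.64%, 2.56 to 7.66) and 1 of 319 Eed null cells (0.313%, 0.00794 to 1.73). On day 10 it took 2 of 214 WT cells (0.935%, 0.113 to 3.34), 60 of 321 Mtf2 null cells (18.7%, 14.6 to 23.4), 32 of 264 Jarid2 null cells (12.1%, 8.44 to 16.7) and 0 of 202 Eed null cells, which allows up to 1.49%. The intervals of WT, Mtf2 null and Jarid2 null thus overlapped on day 7, and on day 10 those of both nulls lay above that of WT. With 1 library per genotype and day there is no replicate check, and a genotype cannot be told apart from its library. All well barcodes occur in more than 1 library, as plates of the same layout give.

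Levels of Six3 and Fezf2 summed over whole libraries did not follow the share of cluster 15 in every genotype. In WT, Six3 lay at 0, 0.467, 19.3 and 0.715 UMI CPM on days 0, 4, 7 and 10, in Mtf2 null at 1.29, 0.366, 8.73 and 88, in Jarid2 null at 0, 0.396, 14.2 and 5.76, and in Eed null at 3.24, 1.33, 21.2 and 8.96. In Jarid2 null the Six3 value was thus lower on day 10 than on day 7, although more of its cells were in the cluster. The Six3 intervals of these days overlapped (9.34 to 20.6 on day 7 and 2.76 to 10.6 on day 10). The day 10 value rested on 10 UMIs in 4 cells. The day 10 Mtf2 null library stands alone, with an interval of 75.9 to 101 against 4.63 to 15.6 in Eed null, the next. Fezf2 lay at 0, 0, 10.4 and 0 in WT, at 0, 0, 9.14 and 43.5 in Mtf2 null, at 0, 0, 9.44 and 5.19 in Jarid2 null and at 0.589, 0, 0 and 0 in Eed null. Day 7 levels of Fezf2 were therefore alike in WT, Mtf2 null and Jarid2 null, and it was found at 0 UMIs in Eed null on that day. Its Jarid2 null intervals of day 7 (5.6 to 14.9) and day 10 (2.37 to 9.85) overlapped. At 0 UMIs, 3 counts would have been 2.15 UMI CPM in WT and 2.24 in Eed null on day 10, so Fezf2 in Mtf2 null was at least 20.3-fold higher than in WT, a bound set by 3 counts in WT that leaves out the counting error of the Mtf2 null value.

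**Figure D2:**
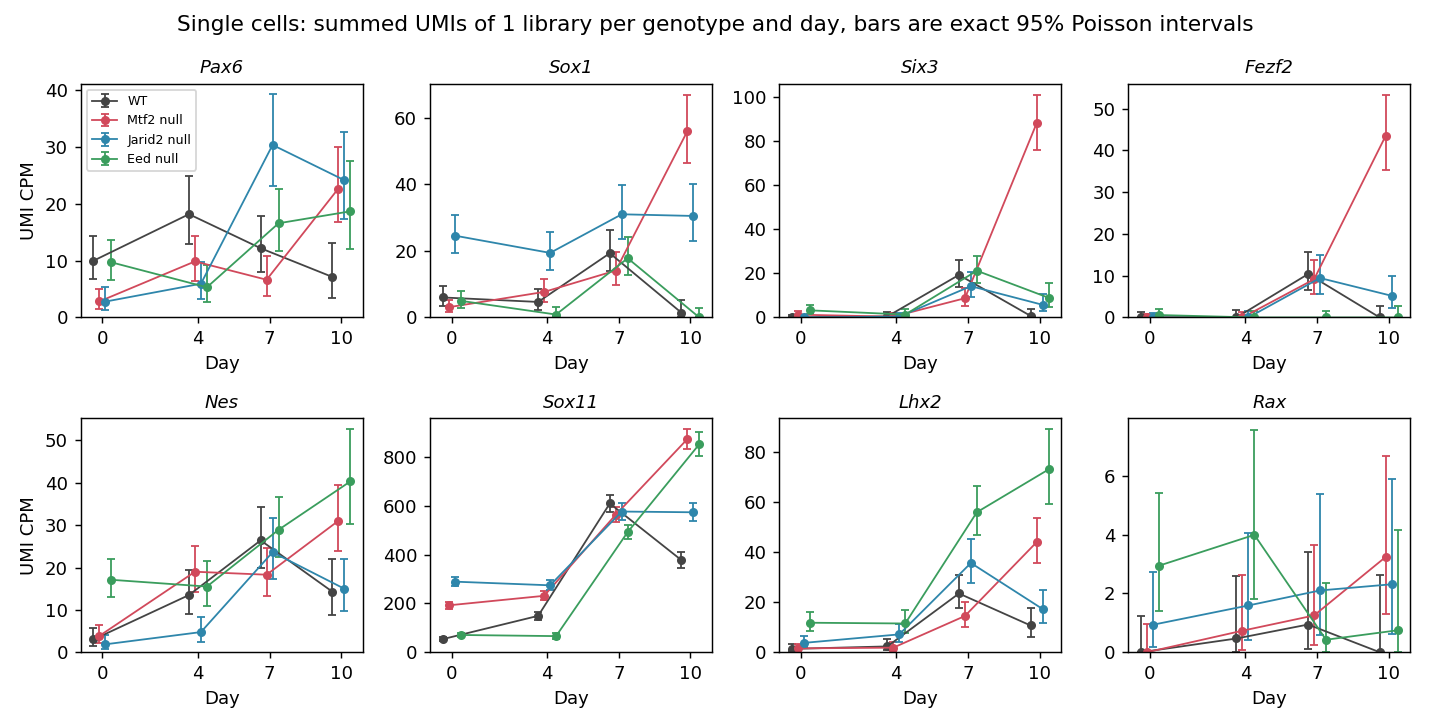
UMI CPM of each gene (vertical axis, linear) by day (horizontal axis) in the 16 single-cell libraries, 1 per genotype and day, with exact 95% Poisson intervals as bars. Six3, Fezf2 and Sox1 rise steeply in the day 10 Mtf2 null library, and Lhx2 is highest in Eed null on every day.

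Lhx2, a LIM homeodomain factor of forebrain, eye and limb, behaved differently in Eed null. It lay at 11.8, 11.5, 56 and 73.1 UMI CPM in Eed null, at 1.34, 2.33, 23.5 and 10.7 in WT, at 1.54, 1.83, 14.5 and 44 in Mtf2 null, and at 3.74, 7.14, 35.7 and 17.3 in Jarid2 null. The Eed null library was the highest on all 4 days, with day 10 intervals of 59.4 to 89.1 in Eed null, 35.6 to 53.8 in Mtf2 null and 6.01 to 17.7 in WT. Of the 296 Lhx2 UMIs in Eed null cells 2 came from cluster 15, which held a single Eed null cell, while 125 lay in cluster 13 (94.1 UMI CPM over 197 Eed null cells) and 60 in cluster 16 (57.9 over 123 Eed null cells). The place differed by day. On day 0 cluster 6 held 31 of them and cluster 10 held 7, on day 4 clusters 10 and 9 held 15 and 11, and on day 10 cluster 13 held 95. Cluster 13 is led by Igfbp5, Dlk1 and Ptn and has a summed cardiac and lateral mesoderm list of 948 UMI CPM against 121 in cluster 15. Its Eed null cells held 0 UMIs of Sox1, Fezf2 and Rax, each of which allows up to 2.26 UMI CPM from 3 counts, while Sox11 lay at 989. Cluster 16 is led by H19, Hoxa9, Hoxc9 and Gata2, so it is given by number alone. Its Eed null cells held Six3 at 33.8 and Sox1 at 35.7 UMI CPM and 0 UMIs of Fezf2.

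Sox1 and Sox11 already differed among genotypes on day 0. Sox1 lay at 6.02, 4.67, 19.3 and 1.43 UMI CPM in WT on the 4 days, at 24.6, 19.4, 31 and 30.5 in Jarid2 null, at 3.08, 7.68, 14.1 and 56 in Mtf2 null and at 5.01, 0.886, 17.8 and 0 in Eed null. Jarid2 null cells were highest on days 0, 4 and 7, and Mtf2 null cells on day 10. Sox11 lay at 53.5, 149 and 377 in WT on days 0, 4 and 10 and within 576 to 643 on day 7 (its interval), at 192, 231, 563 and 873 in Mtf2 null, at 289, 274, 576 and 573 in Jarid2 null and at 70.7, 66, 492 and 852 in Eed null. On day 0 this is a ratio to WT of 3.59 in Mtf2 null and of 5.39 in Jarid2 null, and by day 7 the ratios were 0.924 and 0.945. Sox11 thus started from unequal levels and met on day 7 in these 3 genotypes.

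Pax6 and Nes were low genes in most libraries. Pax6, which also acts in the eye and pancreas, lay at 10, 18.2, 12.2 and 7.15 UMI CPM in WT, at 2.83, 9.88, 6.65 and 22.7 in Mtf2 null, at 2.8, 5.95, 30.4 and 24.2 in Jarid2 null and at 9.72, 5.32, 16.6 and 18.7 in Eed null. On day 0 the intervals of WT (6.77 to 14.3) and of Mtf2 null (1.41 to 5.06) did not overlap, nor did those on day 10 (3.43 to 13.2 and 16.8 to 30), where the order was the opposite. Nes lay at 3.01, 13.5, 26.4 and 14.3 in WT, at 3.86, 19, 18.3 and 31 in Mtf2 null, at 1.87, 4.76, 23.6 and 15 in Jarid2 null and at 17.1, 15.5, 28.9 and 40.3 in Eed null. Eed null cells stood apart in Nes on day 0, with an interval of 13 to 22.1 against 1.38 to 5.72 in WT. Rax stayed at or below 3.99 UMI CPM in all 16 libraries.

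Within cluster 15 the genotypes could be set side by side, with 18 WT, 71 Mtf2 null and 46 Jarid2 null cells. Six3 lay at 252 UMI CPM in WT (169 to 362), at 334 in Mtf2 null (285 to 389) and at 78.5 in Jarid2 null (47.9 to 121). Fezf2 lay at 148 in WT (86 to 236), at 192 in Mtf2 null (156 to 235) and at 66.7 in Jarid2 null (38.9 to 107). For both genes the Jarid2 null interval lay below that of Mtf2 null, and for Six3 below that of WT also. The Jarid2 null levels rested on 20 UMIs in 9 cells for Six3 and on 17 UMIs in 7 cells for Fezf2. The intervals of the share of cells with a UMI overlapped. For Six3 they were 9.36% to 33.9% in Jarid2 null, 33.2% to 57.3% in Mtf2 null and 17.3% to 64.3% in WT. For Fezf2 they were 6.34% to 28.9% in Jarid2 null and 26.8% to 50.3% in Mtf2 null. Sox1 was at 130, 217 and 126 in WT, Mtf2 null and Jarid2 null, Pax6 at 104, 101 and 137, and Lhx2 at 243, 207 and 255. The level intervals of Pax6 and Lhx2 overlapped in all 3 genotypes, and that of Sox1 in Mtf2 null (178 to 262) lay just above that of Jarid2 null (85.9 to 177). As shares of cells with a Sox1 UMI these 2 genotypes overlapped (33.2% to 57.3% and 19.5% to 48%). Sox11 was at 1677 (1449 to 1931), 1592 (1482 to 1707) and 1354 (1215 to 1505). The cells were clustered on these genes among others, and Mtf2 null and Jarid2 null cells came mostly from day 10 while 16 of the 18 WT cells came from day 7, so genotype and day cannot be told apart here.

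**Figure D3:**
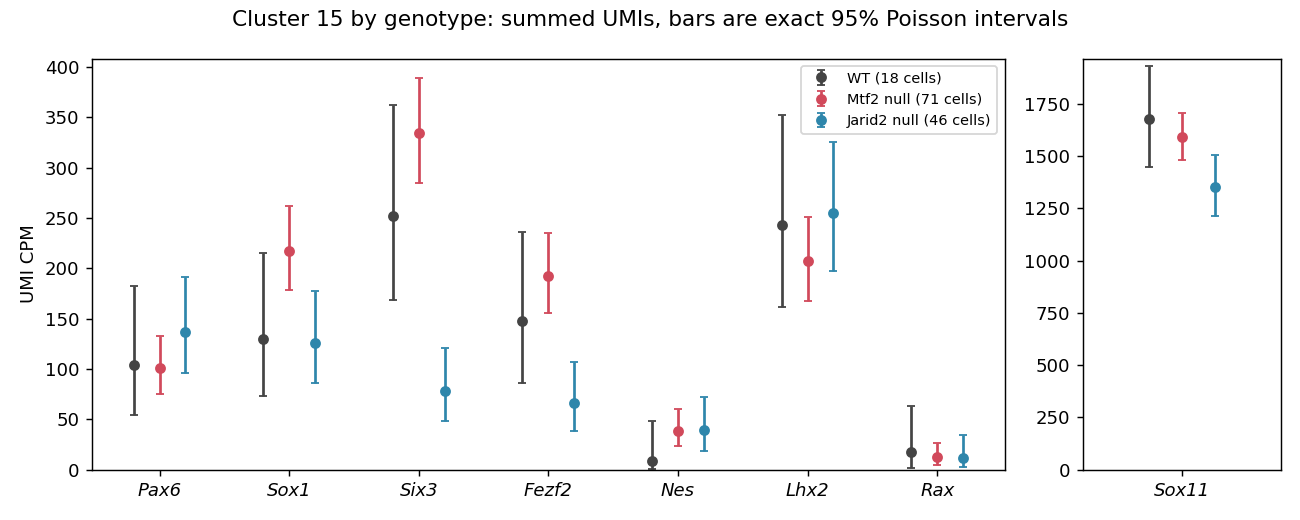
UMI CPM of the 8 genes in cluster 15 by genotype (vertical axis, linear; Sox11 on an axis of its own), with exact 95% Poisson intervals. Six3 and Fezf2 are lowest in Jarid2 null cells, at 78.5 and 66.7, and the intervals of Pax6 and Lhx2 overlap in all 3 genotypes.

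Monolayer cells driven toward mesoderm or endoderm tested the same genes where neural differentiation was not the aim. The levels are CPM after TMM scaling, and a gene was called at an adjusted p under 0.001 in edgeR's quasi-likelihood test with a log2 fold change above 1 in size. Libraries held 9111880 to 16898264 counts. Pax6, Sox1, Nes, Sox11 and Lhx2 passed the filter on low counts in each series, and Six3, Fezf2 and Rax did not. Fezf2 summed to 4 counts over 48 libraries and was at 0 in 44 of them. Rax never exceeded 8 counts. Six3 reached 16 counts (1.12 CPM) at most, in an Mtf2 null library after 48 h toward endoderm. The 3 genes most confined to cluster 15 or lowest in the EBs were thus near absent from these monolayers, and Lhx2 stayed at or below 2.11 CPM.

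Sox11 was the member that rose most clearly in these monolayers, and it did so in Mtf2 null cells before differentiation began. In the 4 undifferentiated libraries of each genotype it lay at 14.1, 17.9, 15.3 and 14.1 CPM in WT (15.3 ± 1.79, mean ± SD, n = 4), at 64.4, 64.5, 64.4 and 66 in Mtf2 null (64.8 ± 0.785) and at 11.3, 11.1, 9.42 and 12 in Jarid2 null (11 ± 1.09). No Mtf2 null library overlapped another genotype. Mtf2 null exceeded WT by 2.08 on the log2 scale (SE 0.10, adjusted p = 2.2e-10) and Jarid2 null by 2.60 (SE 0.10, adjusted p = 2.5e-11). Jarid2 null was lower than WT by a log2 difference of -0.52 (SE 0.11, adjusted p = 0.0034), which is not past the limits. The single-cell day 0 library of Jarid2 null, by contrast, held more Sox11 than that of WT (289 and 53.5 UMI CPM). In bulk samples fewer cells expressing a gene and less RNA per cell cannot be told apart.

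WT cells then gained Sox11 as they differentiated. Toward mesoderm WT lay at 10.7 and 12.4 CPM after 5 h, 17.1 and 20.6 after 24 h and 70.1 and 49.4 after 48 h, and Mtf2 null at 75.5 and 82.4, 90.2 and 80.8, and 100 and 93.9. Toward endoderm WT lay at 16.8 and 16.3, 24.5 and 27.8, and 65.8 and 73.9 CPM, and Mtf2 null at 95.8 and 112, 102 and 112, and 81.3 and 82.1. At every time both Mtf2 null libraries were above both WT libraries, with a gap that was narrower at 48 h. The log2 difference of Mtf2 null from WT toward mesoderm was 2.01 (SE 0.16) undifferentiated, 2.77 (SE 0.17) at 5 h, 2.18 (SE 0.16) at 24 h and 0.70 (SE 0.14, adjusted p = 0.0011, not called) at 48 h. Toward endoderm it was 2.15 (SE 0.13), 2.65 (SE 0.13), 2.03 (SE 0.12) and 0.23 (SE 0.11, adjusted p = 0.13). The change of that difference from undifferentiated to 48 h passed the test itself, at -1.31 (SE 0.22, adjusted p = 0.00034) toward mesoderm and -1.92 (SE 0.17, adjusted p = 1.5e-07) toward endoderm. The mesoderm call was lost without WT replicate 1 of either time or without any 1 Mtf2 null library of these times (adjusted p = 0.0013 to 0.0027), and the endoderm call was kept in each such fit. From undifferentiated to 48 h Sox11 rose in WT by 1.90 and 2.25 on the log2 scale and in Jarid2 null by 2.22 and 2.30, toward mesoderm and endoderm, and was not called in Mtf2 null (0.59 and 0.32). Both Jarid2 null columns at 48 h toward endoderm carry another hour in their names, and their library numbers and sample labels give 48 h.

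**Figure D4:**
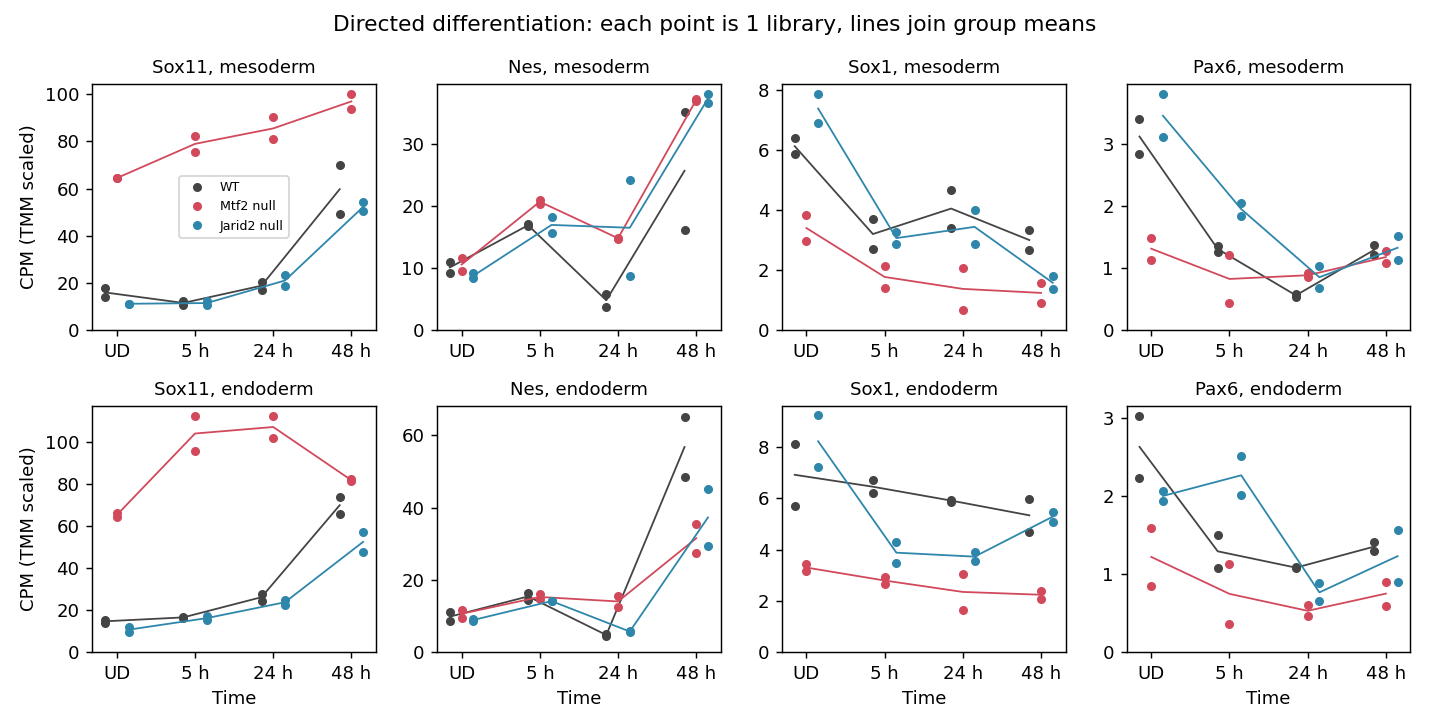
CPM after TMM scaling (vertical axis, linear) of Sox11, Nes, Sox1 and Pax6 by time in the mesoderm (top) and endoderm (bottom) series, with 1 point per library, 2 per group, and lines through group means. Sox11 starts at 64.4 to 66 CPM in Mtf2 null and at 9.42 to 17.9 in the other genotypes, which approach it at 48 h.

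Nes, the nestin gene, was lower in WT than in Mtf2 null at 24 h toward endoderm. Toward endoderm WT went from 11 and 8.7 CPM undifferentiated to 16.5 and 14.4 at 5 h, 5.15 and 4.4 at 24 h and 48.4 and 65.2 at 48 h. Mtf2 null went from 9.61 and 11.7 to 14.6 and 16, 15.7 and 12.4, and 35.6 and 27.5 CPM, so the groups separated at 24 h with Mtf2 null above and at 48 h with Mtf2 null below. The log2 difference was 1.55 (SE 0.23, adjusted p = 2.3e-05) at 24 h and -0.85 (SE 0.18, adjusted p = 0.00069) at 48 h, the latter too small in size to be called. Without WT replicate 2 the 24 h value was 1.44 with adjusted p = 0.0015, which is not called. Jarid2 null lay at 5.9 and 5.57 CPM at 24 h, close to WT. Toward mesoderm at 24 h WT lay at 5.87 and 3.79 CPM, Mtf2 null at 14.9 and 14.8 and Jarid2 null at 24.3 and 8.78, and neither difference passed (1.64, adjusted p = 0.003 and 1.81, adjusted p = 0.0017). Nes rose from undifferentiated to 48 h toward endoderm in WT (2.53), Mtf2 null (1.57) and Jarid2 null (2.06), and toward mesoderm in Mtf2 null (1.81) and Jarid2 null (2.09). The mesoderm value in WT was 1.34 (adjusted p = 0.0036, not called).

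Sox1 was lower in Mtf2 null cells of the directed series. In undifferentiated cells it lay at 6.4, 5.87, 8.13 and 5.7 CPM in WT (6.52 ± 1.11, n = 4), at 2.98, 3.83, 3.43 and 3.17 in Mtf2 null (3.35 ± 0.368) and at 7.86, 6.92, 9.23 and 7.21 in Jarid2 null (7.81 ± 1.03). All 4 Mtf2 null libraries were below all others, by a log2 difference of -0.95 from WT (SE 0.16, adjusted p = 0.0001, just under the size limit) and of -1.19 from Jarid2 null (adjusted p = 9.4e-06, called). Toward endoderm WT kept 4.7 to 6.71 CPM from 5 h to 48 h and Mtf2 null 1.66 to 3.04, with log2 differences of -1.21 (adjusted p = 0.00083) at 5 h, -1.35 (adjusted p = 0.00034) at 24 h and -1.25 (adjusted p = 0.00052) at 48 h. The 5 h and 48 h calls were lost in DESeq2, with adjusted p = 0.0024 and 0.0011, and every Sox1 call of Mtf2 null against WT was lost in fits of the compared groups alone. The 5 h and 48 h calls were also lost without any 1 of the 4 compared libraries. The 24 h call was lost without either WT library and without Mtf2 null replicate 2, where the log2 difference was -0.96. Leaving out some libraries of other groups lost the 5 h call too. Toward mesoderm Sox1 in Jarid2 null fell by 2.23 on the log2 scale from undifferentiated (7.86 and 6.92 CPM) to 48 h (1.8 and 1.36), with adjusted p = 5.2e-05.

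Pax6 was a low gene here, at 0.368 to 3.81 CPM in all 48 libraries. In undifferentiated cells it lay at 2.85, 3.4, 3.03 and 2.24 CPM in WT (2.88 ± 0.484, n = 4) and at 1.49, 1.14, 1.59 and 0.856 in Mtf2 null (1.27 ± 0.336). The groups did not overlap, and the log2 difference of -1.16 (SE 0.26, adjusted p = 0.0014) missed the limit on p. Jarid2 null (2.73 ± 0.889) overlapped WT. Lhx2 had no call in any genotype comparison, and its 4 Mtf2 null undifferentiated libraries (0.167 to 0.28 CPM) lay below those of WT (0.492 to 0.748 CPM).

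Counted over the 4 times, Mtf2 null gave 3 calls in 20 member comparisons toward mesoderm, all of them Sox11, and 7 toward endoderm, of which Sox11 gave 3, Sox1 gave 3 and Nes gave 1. Over all genes tested the share called in Mtf2 null was 11.1%, 7.56%, 5.72% and 6.82% toward mesoderm and 11%, 7.61%, 6.58% and 10.5% toward endoderm, at UD, 5 h, 24 h and 48 h. Jarid2 null gave 0 calls in each series in edgeR, with 3 and 6 of 20 comparisons at an unadjusted p under 0.05, and 1 and 0 calls in DESeq2. Its share over all genes was 0.37%, 0%, 1.97% and 0.169% toward mesoderm, the 0% at 5 h standing beside 2672 genes at an unadjusted p under 0.05 and 11 called by DESeq2, and 0.742%, 0.0363%, 0.0312% and 0.125% toward endoderm. In the undifferentiated libraries of both series, 1 of 4 tested members was called in Mtf2 null (14.7% of all genes), 0 in Jarid2 null (1.15%; 1 at an unadjusted p under 0.05 and 0 in DESeq2) and 2 between Mtf2 null and Jarid2 null (14%). For 48 h against undifferentiated, the members called were 1 in WT (8.64% of all genes), 1 in Mtf2 null (6.28%) and 3 in Jarid2 null (8.5%) toward mesoderm. Toward endoderm they were 2 in WT (8.15%), 1 in Mtf2 null (8.93%) and 2 in Jarid2 null (8.5%). The change of a genotype difference over time was called for 1 member in Mtf2 null in each series (2.71% of all genes toward mesoderm and 5.24% toward endoderm) and for 0 in Jarid2 null (0.0545% and 0.514%). Of the latter, 1 member toward mesoderm and 0 toward endoderm had an unadjusted p under 0.05, and DESeq2 called 0 in each. The comparisons with WT share its libraries.

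The wider neural list of 60 genes moved in both directions. In undifferentiated Mtf2 null cells 4 of its 24 tested genes rose and 3 fell, where 14.7% of all genes were called. In Jarid2 null 0 rose and 1 fell, where 1.15% of all genes were called. Olig2, a factor of the ventral spinal cord, was at 0 to 0.187 CPM in undifferentiated WT and at 15.5 to 18.4 CPM in Mtf2 null. Map2, of neuronal microtubules, rose by 1.04 on the log2 scale. Zic5 and Zic2, zinc finger factors of the dorsal neural tube, fell by 3.69 and 2.86, and Ncam1, a neural cell adhesion molecule, fell by 1.55. Otx2, a factor of forebrain and of primed pluripotent cells, lay lower in Mtf2 null at 24 h in both series (log2 difference -3.37 toward mesoderm and -4.25 toward endoderm). From undifferentiated to 48 h in WT, 6 of 34 tested genes of the list rose and 5 fell toward mesoderm (8.64% of all genes were called), and 11 of 35 rose and 4 fell toward endoderm (8.15%). Otx2 rose by 4.51 and 5.42 on the log2 scale in these, and Gbx2, a factor of the hindbrain border, fell by 5.22 and 2.85.

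Over the 24 libraries of a series the genes closest to the mean log2 profile of the 5 tested members were Dlx3 (Pearson r = 0.812), Pcgf5 (0.806), Lhfp (0.801), Stap2 (0.78) and Helz2 (0.778) toward mesoderm. Toward endoderm they were Tnfsf11 (0.876), Aptx (0.823), Jph4 (0.821), Ptpru (0.816) and Tubb4a (0.815). The lists have no gene in common, and libraries of a genotype and time are not independent points.

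Bulk EBs gave a view of the same genes beside other WT lines. The CPM come from whole reads recovered from the deposited normalised values, with 4071242 to 30457255 reads per sample, and genes were called at an adjusted p under 0.05 in limma with the day as a block. All members except Fezf2 passed the filter, and Fezf2 stayed at or below 1.56 CPM. In libraries labelled Mtf2 null, 2 of 7 members were called, both higher (18.5% of all 15833 genes were called in either direction). In those labelled Eed null, 2 of 7 were called, both higher (11.1%). In those labelled Jarid2 null 0 were called by limma, with 0 at an unadjusted p under 0.05 and 0 called by edgeR on the recovered reads (14.9% of all genes).

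Lhx2 was the gene called in both. It lay at 5.39, 2.17, 11.5 and 11.3 CPM on days 0, 2, 4 and 7 in libraries labelled Eed null and at 0.888, 0.0962, 0.409 and 3.93 in J1. In those labelled Mtf2 null it lay at 0.652, 1.15, 4.62 and 9.06, and in Pcl1-3 WT at 0.683, 0.506, 0.164 and 0.736. Eed null exceeded J1 on all 4 days, and Mtf2 null exceeded Pcl1-3 WT on days 2, 4 and 7. The log2 difference was 2.80 (SE 0.61, adjusted p = 0.0072) for the former and 2.00 (SE 0.61, adjusted p = 0.027) for the latter. Libraries labelled Jarid2 null lay at 2.67, 0.0863, 0.783 and 3.94 and JM8 at 0.379, 0.158, 0.59 and 1.74, a difference of 0.85 (adjusted p = 0.37).

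Six3 followed Lhx2 in the libraries labelled Eed null. It lay there at 2.07, 0.348, 8.3 and 2.33 CPM and in J1 at 0.178, 0, 0.102 and 0.706, higher on all 4 days, with a log2 difference of 2.62 (SE 0.66, adjusted p = 0.016). In libraries labelled Mtf2 null it lay at 0, 0.256, 2.4 and 2.38 against 0, 0, 0.164 and 0.421 in Pcl1-3 WT (1.55, adjusted p = 0.11). Nes lay at 15.1, 37.2, 104 and 85.6 CPM in libraries labelled Mtf2 null and at 14.1, 14.9, 54.9 and 17.8 in Pcl1-3 WT, a log2 difference of 1.14 (SE 0.36, adjusted p = 0.034). In libraries labelled Eed null Nes lay at 96.7, 80.8, 128 and 108 against 31.3, 27.5, 137 and 44.6 in J1, higher on 3 of 4 days (1.09, adjusted p = 0.06). Without day 0, on which Mtf2 was lower in the library labelled Jarid2 null than in that labelled Mtf2 null, the log2 differences in libraries labelled Mtf2 null were 2.66 for Lhx2 (adjusted p = 0.0085), 1.47 for Nes (adjusted p = 0.0053) and 2.03 for Six3 (adjusted p = 0.045). Those labelled Eed null then gave 2.93 for Lhx2 (adjusted p = 0.012) and 2.61 for Six3 (adjusted p = 0.03), although their Eed levels overlapped those of J1 on the other days too. Without day 4 all 4 calls were lost, and without the day block too. Without day 2 those of Nes and Six3 were lost, and without day 7 those of Nes and, in libraries labelled Mtf2 null, Lhx2, while Six3 was then not tested, being under the filter.

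**Figure D5:**
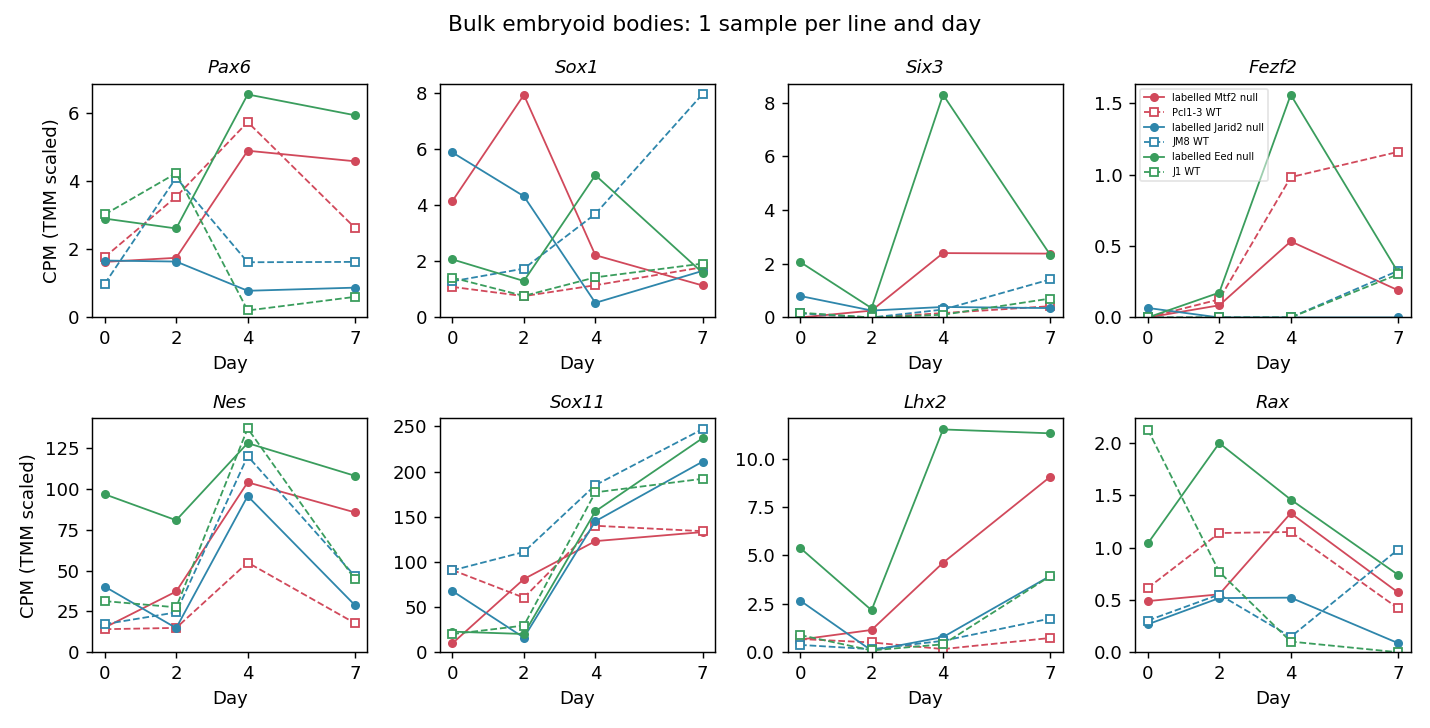
CPM after TMM scaling (vertical axis, linear) of the 8 genes by day in bulk EBs, 1 sample per line and day, with filled points and solid lines for libraries labelled as null and open squares and dashed lines for the WT line of the same colour. Lhx2 is above its WT line on all 4 days for the libraries labelled Eed null, while Sox11 is higher on day 7 than on day 0 in all 6 lines.

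Sox11 was high in every bulk EB line by day 7 and was not called in any. It lay at 9.78, 81, 123 and 133 CPM in libraries labelled Mtf2 null and at 91, 60.4, 140 and 134 in Pcl1-3 WT. Those labelled Jarid2 null lay at 67.8, 16.2, 145 and 211 against 90.6, 111, 185 and 247 in JM8, and those labelled Eed null at 22.8, 20.2, 156 and 237 against 20.1, 29.5, 177 and 192 in J1. On days 4 and 7 all 6 lines lay between 123 and 247 CPM, whereas day 0 and day 2 values ranged from 9.78 to 111. On day 0 the library labelled Mtf2 null was below Pcl1-3 WT, the opposite of the order in undifferentiated directed libraries. Pax6 on day 7 was at 5.93 CPM in libraries labelled Eed null and at 0.605 in J1, with a difference over all days of 1.58 (adjusted p = 0.12). Sox1 on day 7 was at 7.96 CPM in JM8 and at 1.66 in libraries labelled Jarid2 null, and its order was the opposite on days 0 and 2 (5.88 and 4.32 against 1.29 and 1.74). In libraries labelled Mtf2 null Sox1 lay at 4.15, 7.93, 2.22 and 1.14 CPM and in Pcl1-3 WT at 1.09, 0.76, 1.15 and 1.79. It was thus higher under that label on 3 of 4 days, unlike in the directed series. The difference over all days was 1.29 (adjusted p = 0.2, not called). Rax stayed at or below 2.13 CPM.

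Of the wider neural list, 42 genes were tested in bulk EBs. In libraries labelled Eed null, where 11.1% of all genes were called, 10 rose and 1 fell, led by Zic1 (log2 difference 3.87, adjusted p = 0.001), the forebrain factor Otx1 (3.00, adjusted p = 0.016) and Lmx1b (2.73, adjusted p = 0.026), a LIM homeodomain factor of midbrain and limb. In libraries labelled Mtf2 null, where 18.5% of all genes were called, 4 rose and 2 fell, the latter Zic2 (-2.19, adjusted p = 0.011) and Zic5 (-2.17, adjusted p = 0.0016). In those labelled Jarid2 null (14.9% of all genes called) 0 rose and 2 fell, Zic5 (-1.75, adjusted p = 0.0091) and Olig2 (-4.47, adjusted p = 0.027), and at an unadjusted p under 0.05 1 of 42 was higher and 9 were lower.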

How the data were processed

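RNA was measured in single cells of EBs (16 libraries), in directed monolayers (48 libraries) and in bulk EBs (24 samples). The members and lists were chosen with earlier results of these data known.

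For single cells the authors mapped reads to GRCm38/mm10 with Bowtie2, counted UMIs per gene with HTSeq, removed poor cells with Scater and deposited the UMI counts with Seurat clusters (res.2.5), which were used as given. No doublet call is described or was made here. UMIs were summed per cluster or library, and intervals are exact (Poisson or Clopper-Pearson, 95%) and cover counting error only. The thinned shares take 2500 UMIs per cell, which kept 4457 of 4949 cells.

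For the directed series the authors deposited expected counts per gene from Salmon, which were rounded to whole numbers. They were tested with edgeR 4.0.16 (TMM, filterByExpr with a minimum count of 10, quasi-likelihood F test, 1 mean per genotype and time over all 24 libraries of a series, or the 12 undifferentiated libraries with a term for the series), with Benjamini-Hochberg adjustment over all genes tested. The methods call the duplicates technical, so p-values measure only the spread between these libraries, and every duplicate pair differed by more than sampling noise.

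For bulk EBs the deposited signal is gene counts divided by DESeq2 size factors. Whole reads were recovered from its steps in all 46 columns (at least 99.72% of values above 0 lay within 0.05 of a whole read), summed per sample, and tested with limma 3.58.1 (trend) on log2 CPM with day as a block (prior count 2), keeping genes that reached 1 CPM in 4 or more samples. On those reads edgeR called 2909, 2284 and 1440 genes in libraries labelled Mtf2 null, Jarid2 null and Eed null.

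Alternatives were DESeq2 1.42.0, other scalings, no filter, other samples in the fit, a replicate block and leaving out each library or day. The scripts were first tested on simulated data. Named genes are the 8 members, the targeted genes, up to 3 called genes in each direction of the wider list with at least 5 CPM in the higher group, and the 5 genes most alike in profile. Gbx2, Six6, Elavl4, Pax3 and Stmn2 were named after their values were seen. Some genes of the wider list are not reported here. Gene positions are those of GENCODE on GRCm38, and promoters those of RefSeq on GRCm38.p6. The versions of the authors' tools and the strand setting are not given in the sources used here.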

Additional observations from a re-analysis of the deposited data

Results flagged for a closer look

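In undifferentiated Mtf2 null cells, 1 of the 4 libraries had Sox11 at 66 CPM while the others lay at 64.4, 64.4 and 64.5 CPM, and its gap was most of the range of the group. A gap large enough to be flagged occurs by chance in about 1 of 20 groups of independent libraries, and 12 groups of 4 libraries were examined. The 4 libraries here are duplicates from both series, so that share is only a guide. The gap is small beside the WT level of 15.3 CPM.

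The excess of Sox11 in Mtf2 null over WT differed between undifferentiated cells and 48 h, as tested by an interaction term in edgeR, by -1.31 on the log2 scale toward mesoderm (adjusted p = 0.00034) and by -1.92 toward endoderm (adjusted p = 1.5e-07). In both series WT libraries rose toward the level that Mtf2 null libraries had from the start.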

How the results depend on the processing

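Of 758 pairs of a member's call and an alternative, 699 stayed on the same side of the threshold, 59 lost the call and 0 changed sign. The 6 Sox11 calls of Mtf2 null against WT were kept under every alternative run. Counts of member calls that moved by over 1.5 times follow, and the cause was not tested unless the alternative itself uses fewer samples. Under DESeq2, calls went from 0 to 1 in Jarid2 null toward mesoderm, from 1 to 2 for WT at 48 h against undifferentiated toward mesoderm and from 1 to 2 for undifferentiated Mtf2 null against WT. With no filter these were 1, 2 and 2, and calls of Mtf2 null went from 3 to 5 toward mesoderm and its change over time toward endoderm from 1 to 2. On total counts without TMM, undifferentiated Mtf2 null against WT gave 3 calls and the change over time toward mesoderm 0. With the compared groups alone, that change gave 0 and Mtf2 null toward endoderm gave 4 in place of 7. Undifferentiated Mtf2 null against Jarid2 null gave 1 call in the mesoderm series alone and 1 in the endoderm series alone, in place of 2. In bulk EBs, fits without the day block gave 0 calls for the labels Mtf2 null and Eed null, and fits of only the 2 lines compared, chosen after seeing the data, gave 0 and 1.

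Leaving out 1 library or day at a time gave 0 to 1 calls for Jarid2 null toward mesoderm, 1 to 2 for WT and 0 to 1 for Mtf2 null at 48 h against undifferentiated toward mesoderm, 0 to 1 for the change over time in Mtf2 null toward mesoderm, and 4 to 8 for Mtf2 null toward endoderm. The 4 arose without WT replicate 2 at 24 h. It gave 1 to 2 for undifferentiated Mtf2 null against WT, 0 to 3 for bulk EBs labelled Mtf2 null (3 without day 0, 1 without day 2 and 0 without day 4 or day 7) and 0 to 2 for those labelled Eed null (0 without day 4 and 1 without day 2 or day 7). Where 1 library of a group was left, it was assumed to vary like the other groups. The Nes rise to 48 h in Mtf2 null toward mesoderm was lost without any 1 of its 4 libraries, with adjusted p from 0.0025 to 0.01, and that in Jarid2 null without either undifferentiated library (0.0014 and 0.0017). The Sox1 fall in Jarid2 null was lost without its replicate 2 at 48 h (adjusted p = 0.0032).

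Replicate numbers did not pair the libraries of the directed series, since the correlations of same-numbered deviations ran from -0.149 to 0.267. With the replicate number as a block, Mtf2 null toward endoderm gave 8 calls in place of 7 and no other count of member calls changed. No paired analysis was possible in single cells because there is 1 library per genotype and day. The share of cluster 15 cells with 3 or more members was 42.9% after thinning in place of 58.1%. Depth limits what can be said of Fezf2 and Rax in the monolayers, where few counts were found.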
